A study of Mus musculus with 6 samples.

Results

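The genes described here are 6 members of the STAT family (signal transducers and activators of transcription): Stat2, Stat3, Stat4, Stat5a, Stat5b and Stat6. They were taken by gene name from the 53278 genes of the deposited table, and all 6 were found and passed the filter on low counts. RNA was sequenced from type-2 innate lymphoid cells (ILC2s) sorted from the visceral fat of 8-week-old C57BL/6 mice, as cells without lineage markers that carried CD45, ST2 and CD117. All mice had received 3 intraperitoneal doses of 1 µg IL-33, and all cells were then cultured with IL-2 and IL-7 at 10 ng/mL each. In the DTA-1 group the culture held 5 µg/mL DTA-1, an agonistic antibody to the costimulatory receptor GITR. In the isotype control group it held the isotype control antibody instead. The sample labels give the time of culture as 48 h, while part of the study's text gives a shorter time. Each group had 3 libraries, and no label says whether these came from separate mice or cultures, so that the p-values measure only the spread between these libraries, which may be technical.

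STAT proteins wait in the cytoplasm, are phosphorylated by the JAK kinases bound to a cytokine receptor, and move as dimers to the nucleus to switch on target genes. STAT5A and STAT5B are close paralogs that carry the signal of IL-2 and IL-7, both present in these cultures, STAT6 that of IL-4 and IL-13, STAT3 that of the IL-6, IL-10 and IL-21 receptors, STAT4 that of IL-12, and STAT2 that of type I interferon together with IRF9. Because these proteins are switched by phosphorylation, the amount of their mRNA is a measure of supply and not of activity, and phosphorylation was not measured in these libraries.

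Expected counts are estimated numbers of reads per gene. Their total per library was 34557215 to 35131329 with the isotype control and 30569351 to 32492849 with DTA-1. Normalized counts are these counts scaled to library size (CPM after TMM scaling). All 11 genes of an ILC2 marker list had a mean of at least 10 normalized counts, and their summed level was 6947 to 7630 in isotype control and 7506 to 7680 in DTA-1. Single ILC2 markers differed more than the sum. DTA-1 replicates 2 and 3 held 99.0 and 98.4 normalized counts of Icos and 75.8 and 80.8 of the sort marker Kit, where the other 4 libraries held 156 to 173 and 98.8 to 129, and 334 and 317 of Areg, where the others held 188 to 194. The summed level of 7 T cell markers was 40.3 to 53.6 and 46.0 to 50.9, nearly all of it from Cd3g, and Cd8a was at 0. The 5 B cell markers summed to 16.6 to 18.2 over the 6 libraries, nearly all from Cd79b, with Ms4a1 and Pax5 at 0, and the 4 endothelial markers to 18.45 to 24.5 with the isotype control and 10.8 to 18.40 with DTA-1, nearly all from Pecam1, with Cdh5 at 0. The endothelial sums of the groups did not overlap, and their part in the results was not tested. The NK cell, macrophage, neutrophil, fibroblast and adipocyte lists each summed to at most 8.42 in any library. The library labelled as replicate 1 of DTA-1 lay near the isotype control libraries. Over 5200 genes with a mean of at least 40 normalized counts it differed from them by a root mean square of 0.130 to 0.144 on the log2 scale, and from DTA-1 replicates 2 and 3 by 0.212 and 0.217. Whether it was treated and labelled as stated was not tested, and the fold changes over all 6 libraries take its label as given. The results are also given without it, a choice made after these distances were seen that favours a difference between the groups.

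The 6 genes lie at 3 places in the mouse genome (GRCm38). Stat5b (chromosome 11, 100780731 to 100850724, minus strand), Stat5a (100859351 to 100885169, plus strand) and Stat3 (100885098 to 100939540, minus strand) are neighbours on chromosome 11. Stat6 (127642986 to 127660957) and Stat2 (128270559 to 128292849) lie on the plus strand of chromosome 10, and Stat4 (51987148 to 52107189) on the plus strand of chromosome 1. The 3′ ends of Stat5a and Stat3 overlap by 72 bases on opposite strands, and Stat6 overlaps Nab2 by 40 bases in the same manner. Stat4 shares 29929 bases of its span with Gm28177 on the same strand, which had at most 37.9 expected counts in any library, and holds the pseudogene Gm3940, with at most 11.6. The sources used here do not say how reads in overlapping genes or in the paralogs Stat5a and Stat5b were assigned, so the split of reads between these genes is uncertain.

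RefSeq promoter windows (GRCm38.p6, 300 bases around an annotated start) were available for all 6 genes, 9 windows in total. Stat5a and Stat5b each have another window too, and the pair shown was picked as the one with the longest shared run. The Stat5a and Stat5b windows shown each lie inside the span of their gene, past its start. The other Stat5b window, which covers the start of the Stat5b span, shared a run of 11 bases with the Stat5a window shown, as did the Stat2 window. The window of Stat2 is shown because it holds an interferon-response element core. Each sequence is the 250 bases before an annotated start, read 5′ to 3′ on the strand of the gene. In Stat5a (chr11:100860234-100860483, plus strand) and Stat5b (chr11:100822571-100822820, minus strand) capitals mark the longest run of letters that both share, 16 bases long. It begins 32 bases before the start in Stat5a and 23 bases before it in Stat5b. Over a stretch of 63 bases around this run, 53 (84.1%) were identical. In Stat2 (chr10:128270248-128270497, plus strand) capitals mark the match to the interferon-response element core, which reads on the opposite strand.
Stat5a: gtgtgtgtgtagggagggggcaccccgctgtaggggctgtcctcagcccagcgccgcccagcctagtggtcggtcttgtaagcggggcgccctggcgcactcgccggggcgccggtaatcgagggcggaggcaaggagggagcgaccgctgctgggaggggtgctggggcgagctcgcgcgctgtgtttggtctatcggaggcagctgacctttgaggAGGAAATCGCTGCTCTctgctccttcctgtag
Stat5b: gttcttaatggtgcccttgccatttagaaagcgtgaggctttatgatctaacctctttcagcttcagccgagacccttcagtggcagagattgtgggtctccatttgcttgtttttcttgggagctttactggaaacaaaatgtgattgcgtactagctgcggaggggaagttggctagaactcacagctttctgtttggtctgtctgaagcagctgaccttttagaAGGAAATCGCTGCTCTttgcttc
Stat2: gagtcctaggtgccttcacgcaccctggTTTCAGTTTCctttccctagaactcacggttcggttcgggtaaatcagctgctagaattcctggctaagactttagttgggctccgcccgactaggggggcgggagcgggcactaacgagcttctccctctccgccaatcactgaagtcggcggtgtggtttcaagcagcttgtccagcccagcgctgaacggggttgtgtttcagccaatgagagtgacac

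The letters TTCNNNGAA, to which several but not all STAT dimers bind, were searched on either strand. They were found in 0 of these 9 windows and in 8.3% of 32851 RefSeq promoter windows of mouse genes. Sites with another spacing between TTC and GAA were not searched. The interferon-response element core GAAANNGAAA was in 1 window each of Stat2 and Stat4, against 3.44% of all windows. The NF-κB consensus was in 1 window of Stat5a, against 4.51%. A match describes the letters in a window and no binding.

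STAT mRNA did not differ detectably between DTA-1 and isotype control. None of the 6 genes was called differentially expressed by edgeR's quasi-likelihood test (1.5-fold or more, with an adjusted p under 0.05), where 0% of all 14361 genes tested were called. The adjusted p of the 6 genes ranged from 0.769 to 0.998, and 0 of them had an unadjusted p under 0.05, against 1037 of all genes. DESeq2's Wald test and limma-trend called 0 of the 6 as well. The log2 fold changes lay between −0.097 and 0.095, 4 of them above and 2 below 0. Their median was 0.052, beside −0.0078 over all genes tested. By absolute value the median was 0.066, beside 0.124 over all genes and 0.069 over the 5200 genes with a mean of at least 40 normalized counts. All 6 of the 95% confidence intervals lay inside the limits of 1.5-fold in either direction. In 0 of the 6 genes did the DTA-1 libraries lie apart from the isotype control libraries, while the groups did not overlap in 11.3% of all genes tested.

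**Figure D1:**
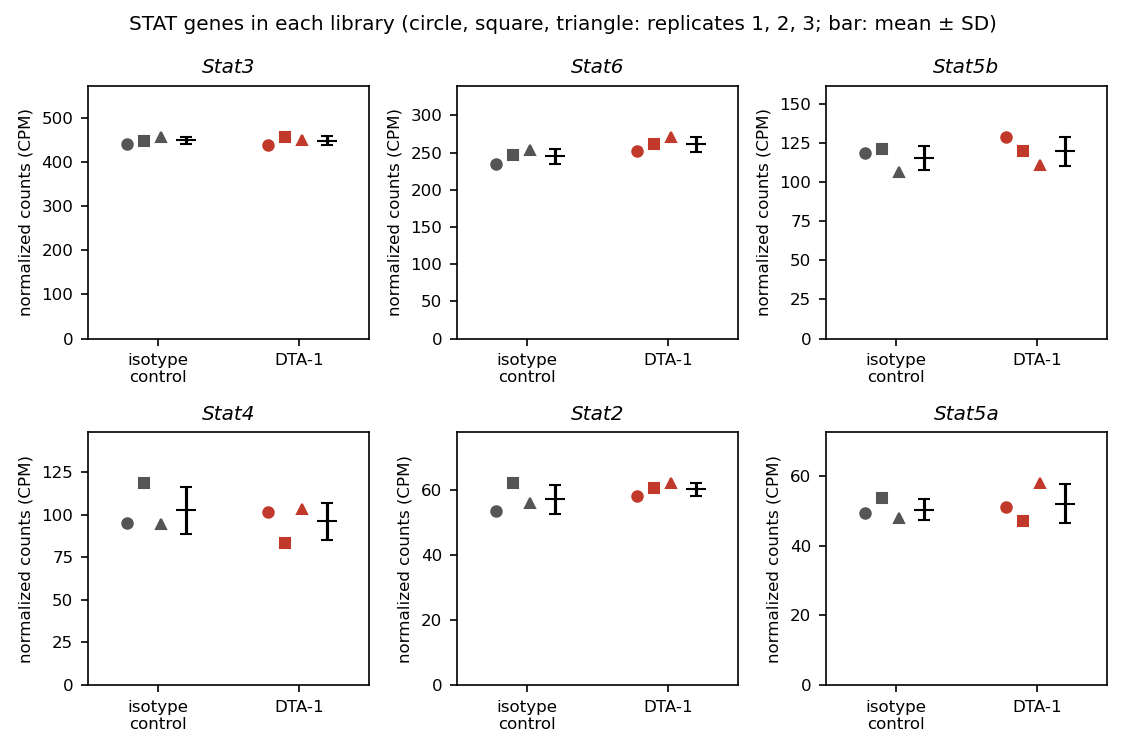
Normalized counts (CPM after TMM scaling, vertical axes from 0) of the 6 STAT genes in the 3 isotype control libraries (grey) and the 3 DTA-1 libraries (red), with the mean and SD of each group (n = 3) as a bar. Circles, squares and triangles are replicates 1, 2 and 3, and in each gene the libraries of the groups overlap.

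The IL-2 and IL-7 signal transducers were the first pair compared. Isotype control replicates 1 to 3 held 49.3, 53.7 and 48.0 normalized counts of Stat5a, and the DTA-1 replicates, in the same order, 51.1, 47.1 and 58.0. DTA-1 held both the lowest and the highest library. The means were 50.3 ± 2.98 and 52.1 ± 5.49 (SD, n = 3 each). Stat5a had a log2 fold change of 0.049 (SE 0.099, 95% interval from −0.17 to 0.27, edgeR adjusted p = 0.944). As fold changes, the ends of this interval are 0.890-fold and 1.20-fold, with the label of every library taken as given. Stat5a was at −0.036 without DTA-1 replicate 3 and at 0.12 without DTA-1 replicate 2.

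Of its paralog Stat5b, isotype control held 119, 121 and 106 normalized counts, against 129, 119 and 110.5 with DTA-1. In Stat5b the highest library was DTA-1 replicate 1, the one that lies near isotype control over the whole transcriptome. With means of 115 ± 7.83 and 120 ± 9.24 (SD, n = 3 each), Stat5b had a log2 fold change of 0.055 (SE 0.080, 95% interval from −0.12 to 0.23, edgeR adjusted p = 0.919). Stat5b was at −0.0027 without DTA-1 replicate 1 and at −0.00079 without isotype control replicate 3.

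Since the split of reads between the paralogs is uncertain, their counts were also summed into 1 gene before the fit. Isotype control then held 168, 174 and 154 normalized counts of the pair, against 180.1, 167 and 168 with DTA-1. The summed log2 fold change was 0.053 (SE 0.069, 95% interval from −0.099 to 0.21, edgeR adjusted p = 0.902), so the pair as a whole had no detectable change either. The interval of the sum was narrower than that of each paralog alone. Single libraries moved the sum, which was at 0.0040 without isotype control replicate 3, 0.092 without isotype control replicate 2 and 0.017 without DTA-1 replicate 1.

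The ratio of Stat5a to Stat5b counts needs no scaling between libraries. Isotype control had ratios of 0.416, 0.445 and 0.452, against 0.396, 0.395 and 0.525 with DTA-1, so each library held fewer counts of Stat5a than of Stat5b. The group means were 0.438 ± 0.0192 and 0.439 ± 0.0746 (SD, n = 3 each). DTA-1 replicate 3 had the highest ratio and the other DTA-1 libraries the lowest ones, and the spread within DTA-1 was wider than the difference between the groups. The difference in mean log2 ratio, DTA-1 less isotype control, was −0.0094 (exact permutation test, two-sided, p = 1, where the smallest p that 3 libraries against 3 allow is 0.1).

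**Figure D2:**
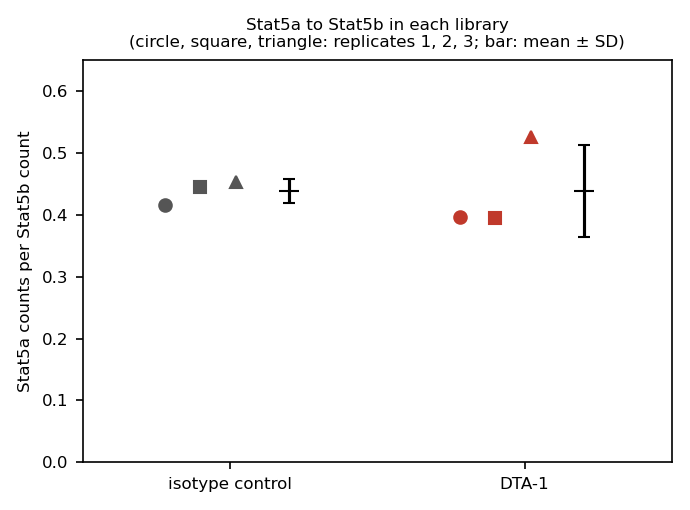
Expected counts of Stat5a divided by those of Stat5b (vertical axis, from 0) in each isotype control library (grey) and DTA-1 library (red), with the mean and SD of each group (n = 3) as a bar. The means are 0.438 and 0.439, and DTA-1 replicate 3 stands highest at 0.525.

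Stat6, the transducer of the type 2 cytokines IL-4 and IL-13, came nearest to a difference. Isotype control held 234, 246 and 254 normalized counts of Stat6, against 251.5, 261 and 272 with DTA-1. DTA-1 replicate 1 lay between isotype control replicates 2 and 3, and the other DTA-1 libraries lay above all isotype control libraries. The means were 245 ± 10.0 and 261 ± 10.1 (SD, n = 3 each), and the log2 fold change was 0.095 (SE 0.062, 95% interval from −0.043 to 0.23, edgeR adjusted p = 0.769). Without DTA-1 replicate 1, Stat6 was at 0.12 (95% confidence interval −0.016 to 0.26, edgeR adjusted p = 0.420). In that comparison Stat6 was the 1 STAT gene whose groups did not overlap, and the groups did not overlap in 31.3% of all 14911 genes tested. Over the alternatives to the main fit, that comparison among them, the adjusted p of Stat6 (edgeR, DESeq2 or limma) ran from 0.420 to 0.999.

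Stat3, which carries signals of the gp130 and IL-21 receptors, was the most even of the 6 genes. Isotype control held 442, 449 and 459 normalized counts of Stat3, against 439, 458 and 451 with DTA-1. The lowest library was DTA-1 replicate 1, the highest isotype control replicate 3, and the groups overlapped. The coefficient of variation was 1.89% with the isotype control and 2.14% with DTA-1. The means were 449.8 ± 8.49 and 449.4 ± 9.63 (SD, n = 3 each), with a log2 fold change of −0.0014 (SE 0.056, 95% interval from −0.12 to 0.12, edgeR adjusted p = 0.998). A change of Stat3 beyond 0.917-fold or 1.09-fold lay outside this interval, and without DTA-1 replicate 1 Stat3 was at 0.015.

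Stat4, the IL-12 transducer known from type 1 lymphocytes, was the least even. Isotype control held 95.2, 119 and 94.2 normalized counts of Stat4, against 101, 83.5 and 103 with DTA-1. Isotype control replicate 2 was the highest library and DTA-1 replicate 2 the lowest, while the other 4 libraries lay between 94.2 and 103. The coefficient of variation was 13.4% with the isotype control and 11.4% with DTA-1. The means were 103 ± 13.8 and 96.0 ± 10.9 (SD, n = 3 each), and the log2 fold change was −0.097 (SE 0.11, 95% interval from −0.34 to 0.14, edgeR adjusted p = 0.883). Its size and direction rested on single libraries. Stat4 was at 0.019 without isotype control replicate 2, and at −0.00043 without DTA-1 replicate 2.

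Stat2, the partner of IRF9 in the interferon response, had 53.4, 62.1 and 55.8 normalized counts with the isotype control, against 58.1, 60.5 and 62.0 with DTA-1. All DTA-1 libraries lay between the second highest and the highest isotype control library. The means were 57.1 ± 4.49 and 60.2 ± 1.95 (SD, n = 3 each), with a log2 fold change of 0.076 (SE 0.086, 95% interval from −0.11 to 0.27, edgeR adjusted p = 0.885). Stat2 was at 0.14 without isotype control replicate 2 and at 0.033 without isotype control replicate 1.

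**Figure D3:**
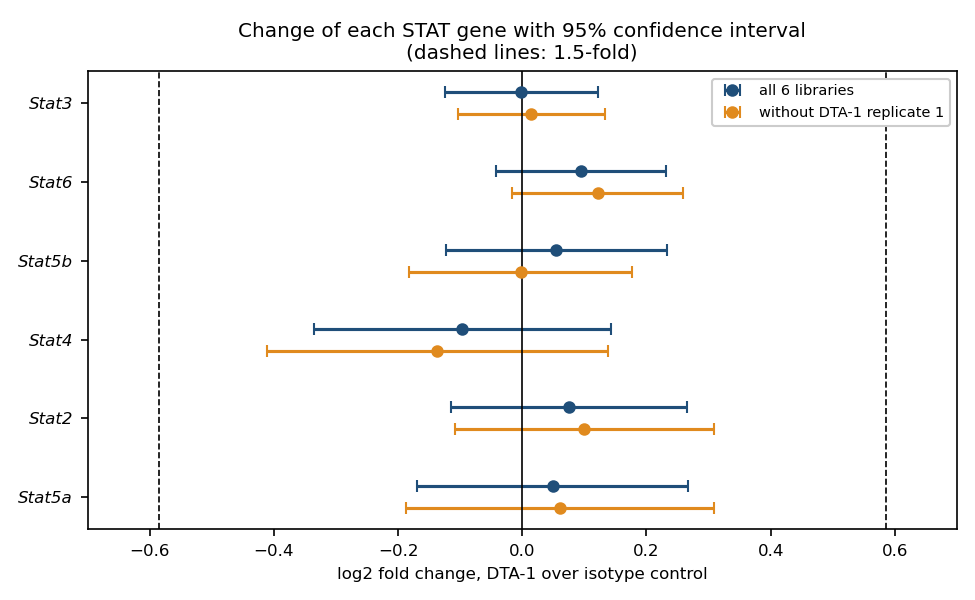
Log2 fold change of each STAT gene, DTA-1 over isotype control, with its 95% confidence interval, for all 6 libraries (blue) and without DTA-1 replicate 1 (orange). All intervals cross 0 and lie inside the dashed lines at 1.5-fold, and the widest is that of Stat4.

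With DTA-1 replicate 1 left out, no difference in the STAT genes was detected either. In that comparison 111 of 14911 genes (0.744%) were called, and 253 (1.7%) had an adjusted p under 0.05 at any fold change, while 0 of the 6 STAT genes were called by either rule. The adjusted p of the 6 genes was then 0.420 to 0.994, and their log2 fold changes lay between −0.14 for Stat4 and 0.12 for Stat6. Over the main comparison and 11 other edgeR fits, the interval ends farthest from 0 were 0.741-fold for Stat4, without isotype control replicate 3, and 1.28-fold for Stat5a, without DTA-1 replicate 2. A change of 1.5-fold thus lay outside the interval of each gene in each of these fits, and changes inside the intervals were not resolved at 3 libraries against 3.

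Distances between libraries were also taken over the STAT genes. Over the 6 genes, DTA-1 replicates 2 and 3 differed from each other by a root mean square of 0.183 on the log2 scale, and from the isotype control libraries by 0.112 to 0.224. Isotype control libraries differed from each other by 0.0891 to 0.181. Over the 5200 genes the distance between DTA-1 replicates 2 and 3 (0.147) was below all of their distances to isotype control (0.200 to 0.243). Summed over the 6 genes, isotype control held 992, 1050.3 and 1017 normalized counts, against 1030.0, 1029.9 and 1056 with DTA-1, with overlapping groups.

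The order of the levels was described over all 6 libraries as normalized counts per kb, since a longer transcript gives more reads. With the merged exons of each gene in GENCODE M21 as its length, Stat6 was highest at 57.5 ± 2.90 per kb and Stat3 next at 47.2 ± 0.853 (SD over 6 libraries). Stat4 followed at 25.7 ± 3.02 and Stat5b at 21.2 ± 1.45, and the ranges of these neighbours overlapped. Stat2 at 9.90 ± 0.595 and Stat5a at 7.18 ± 0.570 per kb were lowest. Taken as 3 pairs down this order, the 6 genes kept the same pairs with the longest transcript, with the longest coding sequence and with no length at all. The order within 1 or more pairs changed on these scales. The pairs are no separate classes of level. With no length, Stat3 was 1.78 times as high as Stat6 within a pair, and Stat4 1.69 times as high as Stat2 between pairs. Stat3 was 1.11 times as high as Stat6 per kb of longest transcript and 1.93 times as high per kb of coding sequence. The ranges of Stat2 and Stat5a overlapped on these 3 scales. Stat5a was below Stat5b on each of the 4 scales.

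**Figure D4:**
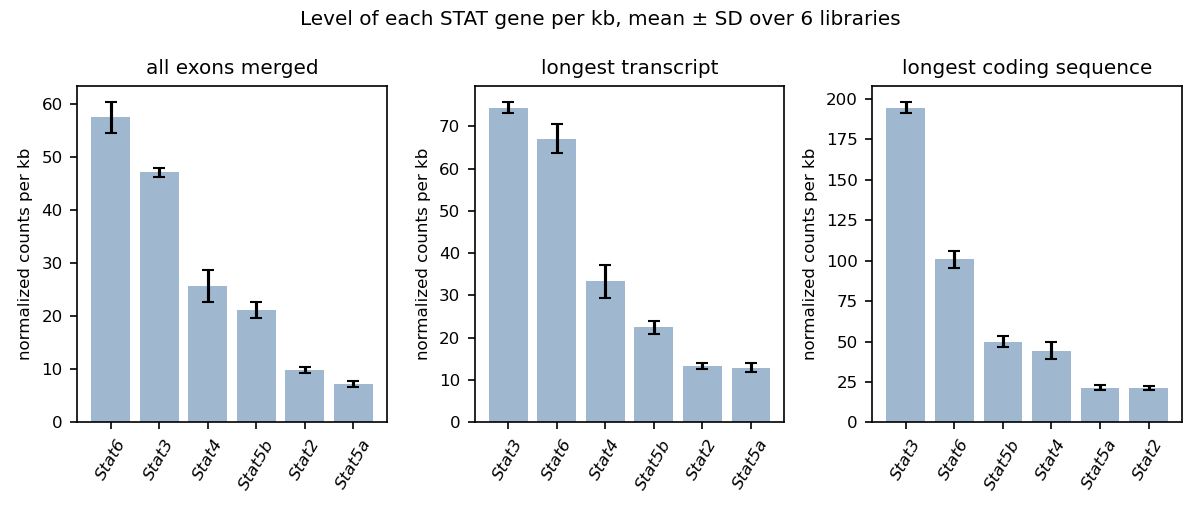
Mean level of each STAT gene over all 6 libraries, in normalized counts per kb (vertical axes from 0, bars with SD), for 3 choices of gene length. Stat3 and Stat6 are highest and Stat2 and Stat5a lowest with each length, and which gene leads a pair depends on the length.

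Genes with a pattern over the 6 libraries most like that of each member were found by Pearson r on the log2 scale among 4435 other genes with a mean of at least 50 normalized counts. These are descriptions over 6 libraries that share depth and scaling, taken as the highest of many values. For Stat2 they were Abca7 (r = 0.998), Acly (0.992) and Tgoln1 (0.990), and for Stat6 Capn2 (0.991), Tmem135 (0.988) and Nrd1 (0.987). For Stat4 they were Ctnna1 (0.973), Gapvd1 (0.970) and Slc35a1 (0.958), and for Stat5a Ptpn7 (0.970), Suv39h1 (0.957) and Golph3 (0.955). For Stat5b they were Arl8b (0.954), Tnfaip8 (0.953) and Rnf115 (0.942), and for Stat3 Gtf2f1 (0.952), Etnk1 (0.943) and Sptbn1 (0.943). No gene was listed for more than 1 STAT gene. Between the STAT genes themselves r over the 6 libraries ran from −0.70 for Stat3 with Stat5b to 0.72 for Stat4 with Stat5a, and it was −0.065 for Stat5a with Stat5b.

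The genes around the STATs were taken from lists of the pathway, which hold 106 genes besides the 6, of which 92 were tested. None of the 92 was called by edgeR (0 genes). At 1.5-fold and an unadjusted p under 0.05 there were 3, where 2.35% of all genes passed. DESeq2's Wald test called 2 of the 92, Oas3 and Tnfrsf4, where it called 25 (0.152%) of the 16489 genes to which it gave an adjusted p. The log2 fold change was above 0 in 52 and below 0 in 40, with a median of 0.045. Without DTA-1 replicate 1, 7 of 97 tested genes were called, all higher with DTA-1, and 0 of the 6 STAT genes. Of all 14911 genes tested in that comparison, 111 (0.744%) were called. Since that library was singled out for its likeness to isotype control, its removal favours such calls, and the calls without it are given as a description. Some of these genes were listed with earlier results of these data known, so the counts are no independent evidence.

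**Figure D5:**
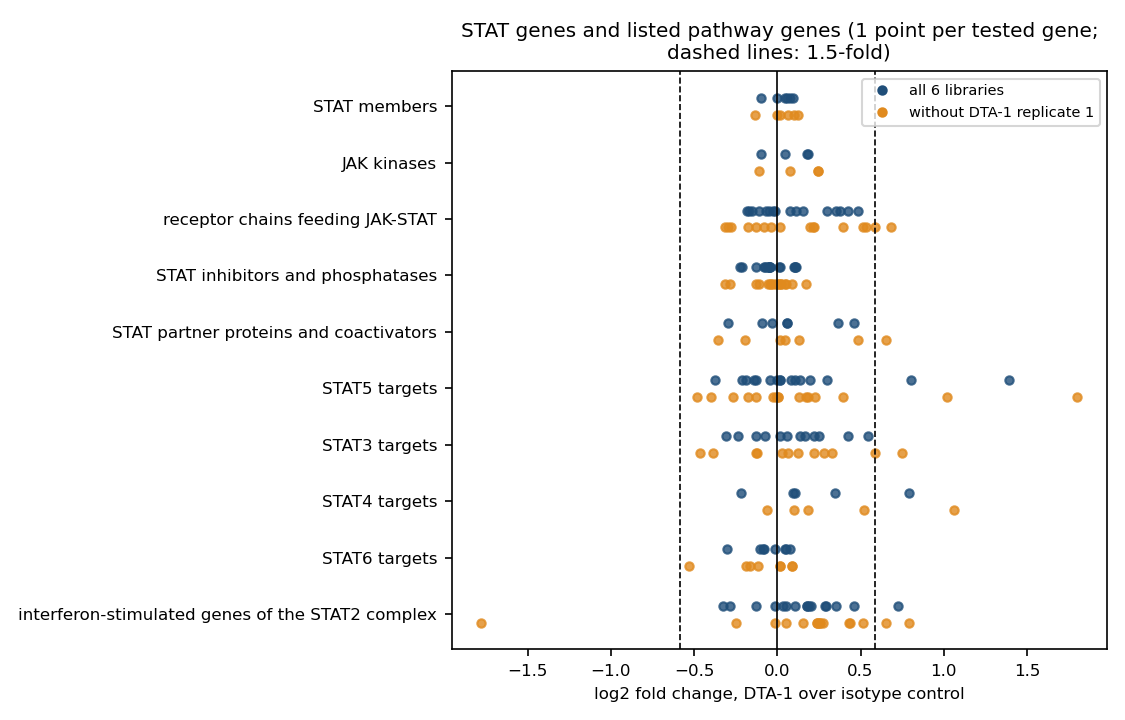
Log2 fold change, DTA-1 over isotype control, of the 6 STAT genes and of each pathway gene tested with all libraries (1 point per gene), for all 6 libraries (blue) and without DTA-1 replicate 1 (orange). The STAT genes lie between −0.14 and 0.12 in both comparisons, and points beyond the dashed lines at 1.5-fold are in other lists.

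Upstream of the STATs, 0 of 4 JAK kinases and 0 of 17 STAT inhibitors and phosphatases were called in either comparison. Jak1, the kinase that most of these receptors use, had 613 ± 42.4 and 692 ± 63.9 normalized counts in isotype control and DTA-1 (SD, n = 3 each), Tyk2 136 ± 4.36 and 155 ± 12.2, and Jak2 163 ± 11.2 and 152 ± 4.92. Cish, a feedback inhibitor that STAT5 itself induces, had 581 ± 44.2 and 626 ± 54.7 normalized counts (log2 fold change 0.11, edgeR adjusted p = 0.797). The phosphatase gene Ptpn2 had a log2 fold change of −0.22 and the feedback inhibitor gene Socs3 one of −0.13 (edgeR adjusted p = 0.657 and 0.845).

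Of 19 receptor chains, 16 were tested with all libraries, 8 of them above and 8 below 0. The untested chains were Il12rb2 and Il13ra1, at 0 normalized counts in both groups, and Il6ra, with means of at most 0.170. With all libraries, the 3 chains of the IL-2 receptor, which activates STAT5, had the smallest p. Isotype control held 403, 424 and 422 normalized counts of Il2rb, against 428, 586 and 604 with DTA-1, so that the DTA-1 libraries lay above all isotype control libraries. Over the alternatives to the main fit, the adjusted p of Il2rb (edgeR, DESeq2 or limma) ran from 0.00129 to 0.999. Its log2 fold change was 0.37 (edgeR adjusted p = 0.627) with all libraries. It was 0.51 without DTA-1 replicate 1, the alternative with the lowest of these adjusted p (edgeR, 0.00129). Il2ra was at 0.30 and 0.39 (edgeR adjusted p = 0.627 and 0.0122) and Il2rg at 0.49 and 0.68 (0.627 and 0.000115), and Il2rg was the 1 receptor chain called without that library. Without it, 5 of 17 tested chains had an edgeR adjusted p under 0.05, 4 higher and 1 lower, where 1.7% of all genes did. Beside the IL-2 receptor chains these were Il10ra at 0.53 (edgeR adjusted p = 0.00322) and Ifngr1 at −0.32 (edgeR adjusted p = 0.0460). In the same libraries Stat5a and Stat5b, which the IL-2 receptor chains signal to, had log2 fold changes of 0.061 and −0.0027.

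Downstream, genes known as targets of single STATs were listed. Of 16 STAT5 targets tested, 0 were called by edgeR with all libraries. Their log2 fold changes were above 0 in 9 and below 0 in 7, with a median of 0.017 (0.0035 without DTA-1 replicate 1). Isotype control held 53.7, 38.1 and 44.3 normalized counts of Lta, against 41.0, 169 and 148 with DTA-1, so that DTA-1 replicate 1 lay among the isotype control libraries. Lta was at 1.39 with all libraries (edgeR adjusted p = 0.692) and at 1.80 without DTA-1 replicate 1 (edgeR adjusted p = 0.000115), and Tnfrsf4 at 0.80 and 1.02 (edgeR adjusted p = 0.627 and 0.00573), both called without it. They encode lymphotoxin alpha and OX40, which are known as NF-κB targets as well, and Tnfrsf4 was also called by DESeq2's Wald test on all libraries (DESeq2 adjusted p = 0.0154). Pim2, a survival kinase gene, had −0.37 with all libraries and −0.49 without that library (edgeR adjusted p = 0.627 and 0.0481), short of 1.5-fold. Of 12 STAT3 targets tested, the AP-1 gene Junb was called without that library (0.75, against 0.54 with all libraries, edgeR adjusted p = 0.000610), while Hif1a was at 0.33 (edgeR adjusted p = 0.0478) and Maf at −0.39 (edgeR adjusted p = 0.0588).

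Of 9 STAT4 targets 5 were tested. The others were too low: Ifng and Il12rb2 had 0 normalized counts in both groups, and Tbx21 and Il18 had means of at most 0.162. The protease gene Furin was called without DTA-1 replicate 1 (log2 fold change 1.06, edgeR adjusted p = 0.000115, against 0.79 with all libraries). Ets1 was at 0.10 and Il18rap at 0.18 without that library. Of 10 STAT6 targets 8 were tested and 0 called in either comparison. With all libraries Gata3 was at −0.082, Arg1 at −0.10 and Bcl6 at −0.30 on the log2 scale (edgeR adjusted p = 0.789, 0.757 and 0.890), and Bcl6 had a mean of at most 2.26 normalized counts.

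Among the targets of the STAT2 complex, Oas3, an interferon-induced antiviral enzyme gene, had the smallest p of all listed genes. It had 14.6, 15.2 and 14.6 normalized counts with the isotype control, against 22.1, 24.4 and 26.8 with DTA-1. All DTA-1 libraries lay above all isotype control libraries, DTA-1 replicate 1 included. The log2 fold change of Oas3 was 0.72 (SE 0.12, edgeR adjusted p = 0.452), and DESeq2's Wald test called it (DESeq2 adjusted p = 0.00147). Irf9, which encodes the DNA-binding partner of STAT2, had 38.5, 32.3 and 32.4 normalized counts with the isotype control, against 33.8, 55.3 and 52.9 with DTA-1, so that DTA-1 replicate 1 lay among the isotype control libraries. Without DTA-1 replicate 1, Oas3 was at 0.79 and Irf9 at 0.65 (edgeR adjusted p = 0.0136 and 0.0161), both called, and Ddx58 at 0.43 (0.0309). Stat2 was at 0.10 (edgeR adjusted p = 0.703) in that comparison. The list of these interferon-stimulated genes holds 22, of which 16 were tested with all libraries, 12 above and 4 below 0. Those below 0 were Isg15 (−0.017), Parp14 (−0.13), Mx1 (−0.28) and Ifit1 (−0.33), and Ifit2 was at 0.051. Mx1 and Ifit1 had means of at most 0.575 normalized counts. With all libraries, Ifit3, Mx2, Oas2, Oasl2, Rsad2 and Ifi44 were too low to be tested. In the list of 7 STAT partner and coactivator genes, Nab2 was at 0.36 with all libraries and 0.48 without DTA-1 replicate 1 (edgeR adjusted p = 0.627 and 0.0391). The link of Nab2 to a STAT gene shown here is one of position, as its 3′ end overlaps that of Stat6. A role of Nab2 as a STAT partner was not tested. Ep300 was at −0.30 and −0.36 (edgeR adjusted p = 0.632 and 0.171).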

How the data were processed

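RNA of cultured ILC2s was sequenced as 3 isotype control and 3 DTA-1 libraries on an Illumina NextSeq. The authors' methods name Partek Genomics Suite for alignment and analysis. The deposited values are expected counts per gene, not normalized, which need not be whole numbers. The submitters' processing notes also name STAR 2.5.3a, bcl2fastq 2.17.1.14 and the build mm10. The annotation release and the strand setting are not given in the sources used here. Of 49618 symbols shared with GENCODE M21, 47669 had the same start and end after 1 was taken from the stop in the table.

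They were rounded, and edgeR 4.0.16 under R 4.3.3 gave the main test: low genes were removed with filterByExpr, libraries scaled by TMM, and a robust quasi-likelihood F test with Benjamini-Hochberg adjustment was run without covariates. The filter kept 14361 genes. Alternatives used DESeq2 1.42.0 (its Wald test and its size factors), limma 3.58.1 (trend, prior count 2), total counts, no filter, a minimum of 10 counts throughout, a replicate block, 1 library left out at a time, an unadjusted p, and no fold limit. SEs were derived from the F statistics. Lengths and windows come from GENCODE M21 and RefSeq. The Python 3.11.15 scripts used pandas 2.3.3, numpy 2.4.6, scipy 1.17.1 and matplotlib 3.10.9.

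The procedure was tested on simulated data for DTA-1 against isotype control over 14361 genes. It found 188 (94%) of 200 genes given a 2-fold change and made 10 false calls. The change was put into every DTA-1 library, and only into genes above a minimum level. The simulation thus had no DTA-1 library near the isotype control libraries, as replicate 1 was in the data. The 94% is therefore no measure of how many changes the real comparison could find, nor of changes below 2-fold.

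The members and lists were chosen with earlier results of these data known. From each list the text names the 3 tested genes with the smallest p over all libraries and those called with all libraries or without 1. Of the receptor chains, the STAT4 targets and the interferon-stimulated genes, further genes are named to describe the rest of the list. The lists were JAK kinases, receptor chains, STAT inhibitors and phosphatases, STAT partners, targets of STAT5, STAT3, STAT4 and STAT6, interferon-stimulated genes, and cell type markers. Genes most like a member are the 3 with the highest Pearson r. Intervals and depth cover the spread of these libraries and counting error only.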

Additional observations from a re-analysis of the deposited data

How the results depend on the processing

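Of 78 log2 fold changes of the 6 STAT genes under 13 alternatives each, 70 kept their direction, 8 changed it and 0 passed the adjusted p of 0.05, and the largest absolute value was 0.155. The changes of direction were in Stat3, Stat4, Stat5a and Stat5b. Stat3 was at 0.0017 with DESeq2's size factors and 0.0022 with DESeq2's Wald test. With each library left out, Stat2 ran from 0.033 to 0.14, Stat3 from −0.010 to 0.015, Stat4 from −0.16 to 0.019, Stat5a from −0.036 to 0.12 and Stat5b from −0.0027 to 0.11. The summed Stat5a and Stat5b ran from 0.0040 to 0.092. The difference in the log2 ratio of Stat5a to Stat5b ran from −0.15 to 0.060, so its sign rests on single libraries. Called STAT genes stayed at 0 in all alternatives. The count of called pathway genes was 0 in the main comparison and under the other alternatives, 7 without DTA-1 replicate 1 (0 to 7 over the libraries left out), 2 with DESeq2's Wald test (25, or 0.152%, of the 16489 genes it gave an adjusted p) and 3 at an unadjusted p under 0.05 and 1.5-fold. Of 15 pairs of STAT genes, the order of levels changed in 1 with the longest transcript, 3 with the coding length and 2 with no length.

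Same-numbered libraries of the groups did not deviate together (correlations of −0.0069, −0.0029 and 0.015). With the replicate number as a block the log2 fold changes of Stat6 and Stat4 were 0.095 and −0.094, the summed Stat5a and Stat5b had 0.054, and 0 STAT genes were called. Each STAT gene had at least 1471 expected counts in every library, and with 3 libraries a group changes inside the intervals were not resolved.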
